A study of Mus musculus with 6 samples.

Results

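Broad acetylated promoter domains are long stretches of histone H3 lysine 27 acetylation (H3K27ac) that lie over gene starts. They were examined here in alveolar macrophages (AMs), the resident macrophages of the lung airspaces. Peaks from the 2 libraries made with the Cell Signaling antibody were merged where they overlapped, and merged regions that held a peak of each library were kept, which gave 29277 shared regions. Of these, 9872 overlapped 1 kb either side of a protein-coding transcription start site (TSS, mm10 build, GENCODE vM21), and the 820 that were at least 5 kb wide are the broad domains. The domains were thus selected on their width and on the Cell Signaling peaks. They made up 2.80% of shared regions and 8.31% of acetylated promoter regions, and they lay at 887 of 21668 protein-coding genes.

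The AMs came from wild-type mice, which the study's methods give as 9-week-old C57BL/6J animals. Cells were obtained by bronchoalveolar lavage, fixed and sorted, and H3K27ac was profiled by HT-ChIPmentation, in which antibody-bound chromatin is cut and tagged by a transposase on the beads. Of the 6 samples, 1 used an H3K27ac antibody from Active Motif, 2 were replicates with one from Cell Signaling, and 3 were inputs that entered only as the background of the authors' peak calls. The labels do not say whether the replicates came from separate animals, all samples share 1 genotype with no treatment named in the labels, and the methods name 2 sonicators for H3K27ac without assigning libraries to them, so antibody, run and depth cannot be told apart between libraries. The deposited lists held 36364 peaks (Active Motif), 56175 peaks (Cell Signaling replicate 1) and 49139 peaks (replicate 2). They carry no read counts, so the depth behind a peak cannot be read from them. The sequencing quality data that the study provides were not drawn on here. The Active Motif library took no part in choosing the domains.

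H3K27ac is placed on nucleosomes by the acetyltransferases p300 and CBP and marks active promoters and enhancers. At most active genes it flanks the TSS in a short region, whereas at some genes it spreads over many nucleosomes into the gene body. In macrophages the factor PU.1, together with C/EBP and AP-1 family members, opens much of the enhancer repertoire. AMs in addition depend on PPARγ, a lipid-sensing nuclear receptor that pairs with RXR, and are known for taking up and breaking down surfactant lipid.

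The promoters of broad domains were not of 1 sequence type, and a few of them are shown to make this visible. Sequences are the 250 bases before the start in RefSeq (GRCm38.p6, the same assembly as mm10), 5′ to 3′ on the strand of the gene. RefSeq promoters were at hand for the genes of 646 of the 820 domains. In the first set, capitals mark CpG dinucleotides.
Cd9, chr6:125494761-125495010, minus strand: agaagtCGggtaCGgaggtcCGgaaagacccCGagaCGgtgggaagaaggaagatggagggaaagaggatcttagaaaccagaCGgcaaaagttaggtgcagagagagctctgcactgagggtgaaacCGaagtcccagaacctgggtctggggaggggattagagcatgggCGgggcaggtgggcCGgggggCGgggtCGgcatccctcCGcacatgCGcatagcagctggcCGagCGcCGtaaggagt
Klf6, chr13:5861239-5861488, plus strand: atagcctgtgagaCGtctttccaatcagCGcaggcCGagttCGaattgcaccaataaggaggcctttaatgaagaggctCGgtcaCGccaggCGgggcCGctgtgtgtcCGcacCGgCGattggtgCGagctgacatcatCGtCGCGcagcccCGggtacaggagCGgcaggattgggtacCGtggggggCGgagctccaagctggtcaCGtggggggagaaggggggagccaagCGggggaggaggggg
Pparg upstream promoter, chr6:115360894-115361143, plus strand: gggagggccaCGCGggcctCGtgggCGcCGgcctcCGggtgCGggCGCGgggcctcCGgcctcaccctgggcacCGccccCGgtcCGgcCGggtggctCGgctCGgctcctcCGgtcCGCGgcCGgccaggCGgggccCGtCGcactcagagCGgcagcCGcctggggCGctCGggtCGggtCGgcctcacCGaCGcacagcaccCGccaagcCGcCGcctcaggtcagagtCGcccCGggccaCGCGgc
Pparg internal promoter, chr6:115421816-115422065, plus strand: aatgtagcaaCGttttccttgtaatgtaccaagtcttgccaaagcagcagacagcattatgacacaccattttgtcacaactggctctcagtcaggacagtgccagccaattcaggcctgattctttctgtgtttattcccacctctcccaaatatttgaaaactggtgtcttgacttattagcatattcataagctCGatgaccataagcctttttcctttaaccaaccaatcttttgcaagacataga
Chil3, chr3:106167565-106167814, minus strand: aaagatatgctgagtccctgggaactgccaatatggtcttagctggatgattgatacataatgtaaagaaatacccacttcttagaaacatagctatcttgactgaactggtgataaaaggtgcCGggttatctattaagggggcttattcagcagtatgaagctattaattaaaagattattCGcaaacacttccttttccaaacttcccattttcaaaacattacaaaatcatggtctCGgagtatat
Marco, chr1:120505025-120505274, minus strand: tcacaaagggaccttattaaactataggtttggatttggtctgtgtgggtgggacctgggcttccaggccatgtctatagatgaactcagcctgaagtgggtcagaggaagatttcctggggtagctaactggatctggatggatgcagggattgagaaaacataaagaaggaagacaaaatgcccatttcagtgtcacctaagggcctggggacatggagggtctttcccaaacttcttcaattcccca
These stretches held 16 CpGs at Cd9, 21 at Klf6, 38 at the upstream Pparg promoter, 2 at the internal Pparg promoter, 3 at Chil3 and 0 at Marco. Their GC content was 61.6%, 64.8%, 82.4%, 40.8%, 36.4% and 47.6%, in the same order. Among the promoters shown, broad acetylation thus covered both CpG-rich and CpG-poor starts, in the case of Pparg within a single gene. CpG-rich starts were the majority over all domains, with a CpG island (defined below) at a promoter of 686 of 820 (83.7%). For the upstream Pparg promoter, the RefSeq start lies 193 bases from the GENCODE TSS used elsewhere.

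In the second set, capitals mark the PU.1, NRF1, ETS, TATA and cyclic AMP response element words, shown because their frequencies are compared further on. Words of the E-box, SP/KLF and NF-Y kinds, which are also compared, are left in lower case.
Nceh1, chr3:27182754-27183003, plus strand: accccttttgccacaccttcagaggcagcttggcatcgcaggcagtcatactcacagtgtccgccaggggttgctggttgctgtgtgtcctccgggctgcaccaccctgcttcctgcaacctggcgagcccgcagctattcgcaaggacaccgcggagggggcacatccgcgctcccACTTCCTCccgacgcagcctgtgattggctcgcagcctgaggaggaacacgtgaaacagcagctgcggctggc
Actr3, chr1:125435728-125435977, minus strand: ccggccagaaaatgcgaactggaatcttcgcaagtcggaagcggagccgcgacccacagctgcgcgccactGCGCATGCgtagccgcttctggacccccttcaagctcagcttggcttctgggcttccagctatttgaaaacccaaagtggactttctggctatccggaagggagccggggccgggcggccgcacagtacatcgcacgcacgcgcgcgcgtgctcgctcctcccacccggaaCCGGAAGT
Dusp1, chr17:26508473-26508722, minus strand: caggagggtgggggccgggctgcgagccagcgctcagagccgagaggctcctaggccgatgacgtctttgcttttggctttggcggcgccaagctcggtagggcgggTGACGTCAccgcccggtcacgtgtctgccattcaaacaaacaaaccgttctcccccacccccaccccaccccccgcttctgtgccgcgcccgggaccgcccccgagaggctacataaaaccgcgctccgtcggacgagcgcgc
Fos, chr12:85473640-85473889, plus strand: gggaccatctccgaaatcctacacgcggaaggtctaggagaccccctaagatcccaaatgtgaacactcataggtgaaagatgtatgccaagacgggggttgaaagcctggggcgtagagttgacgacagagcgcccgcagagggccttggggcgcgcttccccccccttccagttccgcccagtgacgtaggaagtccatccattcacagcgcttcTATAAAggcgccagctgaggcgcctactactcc
The capitals in Nceh1 are the PU.1 word GAGGAAGT, which begins 73 bases before the start. Actr3, an actin nucleator subunit, holds the NRF1 word GCGCATGC 179 bases before the start and the ETS word CCGGAAGT 8 bases before it. The capitals in Dusp1 are the cyclic AMP response element TGACGTCA at 143 bases, and those in Fos the TATA word TATAAA at 33 bases. The PU.1 and ETS words share their last letters but differ in the first ones, so no stretch can match both. A match of letters is a description of the sequence and not evidence of a bound factor.

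The widths of the 820 domains had a median of 7.0025 kb (interquartile range 5.77 to 9.62 kb) and ran from 5.005 kb to 48.1 kb. Widths of at least 10 kb were found in 189 domains, of at least 20 kb in 27 and of at least 30 kb in 9. Together the domains covered 7.15 Mb of the 23.7 Mb in all acetylated promoter regions. The plot of promoter region widths has a single crest below 2 kb and a long right flank, and 5 kb lies on that flank with no gap in the distribution. Widths on either side of the limit were close. The narrowest domains were those of Echdc1 (5.005 kb), Sorbs3 (5.007 kb), Alox5ap (5.008 kb), Trim41 (5.013 kb) and Bcl2l11 (5.016 kb). The widest regions left out were those of Itga5 (4.996 kb), Mark2 (4.994 kb), Jmjd1c (4.984 kb), Mia2 (4.981 kb) and Gpr141 (4.98 kb).

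**Figure D1:**
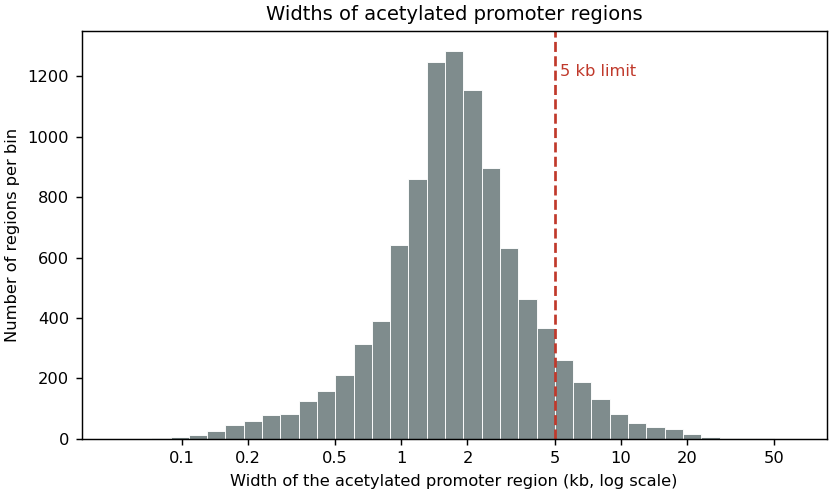
Number of acetylated promoter regions (vertical axis) by width in kb (horizontal axis, log scale), over 9872 regions. The dashed line is the 5 kb limit, and the 820 broad domains to its right form the tail of a single distribution.

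The widest domain lay at Adipor2, a receptor for the adipocyte hormone adiponectin (chr6:119371209-119419299). Its 48.1 kb were covered to 66.7% by peaks of the Active Motif library, to 87.1% by those of Cell Signaling replicate 1 and to 99.8% by those of replicate 2. Only replicate 2 spanned it with 1 peak, while replicate 1 had 22 peaks and the Active Motif library 31. Cd9, a tetraspanin of the plasma membrane, had the next domain (44.0 kb, chr6:125472557-125516543), which extended 21.8 kb upstream and 22.2 kb downstream of the TSS. The 3 libraries covered 83.0%, 97.2% and 99.9% of it, in the order Active Motif, replicate 1 and replicate 2, which is the order used from here on. Sept9, a septin of the cytoskeleton, followed with 41.7 kb and coverage of 72.4%, 90.5% and 100%. Nceh1 encodes an enzyme that hydrolyses cholesterol esters, and its 40.4 kb domain began 0.457 kb before the TSS and ran 39.97 kb into the gene, with coverage of 88.3%, 96.3% and 100%. In all 4 of these domains coverage was lowest in the Active Motif library and highest in replicate 2.

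The 37.0 kb domain on chromosome 17 took in the starts of Fpr1, Fpr2 and Fpr3, receptors for formylated bacterial peptides. Each Cell Signaling replicate had 1 peak over it and the Active Motif library 15, with coverage of 88.3%, 98.9% and 100%. The other domains among the 20 widest were those of the hyaluronan receptor gene Cd44 (36.6 kb), the phosphatase gene Ptpn12 (35.0 kb), Lrrfip1 (33.3 kb), the phosphoinositide 3-kinase subunit gene Pik3r5 (30.5 kb) and the coactivator gene Zmiz1 (29.3 kb). Abcd2, which encodes a peroxisomal transporter of very long chain fatty acids, had 28.7 kb and the sorting receptor gene Sort1 had 26.3 kb. Then came N4bp1 (26.0 kb), the pair of Klf13 and E030018B13Rik (26.0 kb) and the pair of Ctsd, for the lysosomal protease cathepsin D, and Gm49369 (25.9 kb). The list ended with the actin-bundling gene Lcp1 (25.6 kb), Rin3 (25.1 kb), Sirpa (24.3 kb), Snx1 with Ciao2a (22.9 kb) and Rassf4 (22.8 kb). Sirpa is the macrophage receptor for CD47, and Cd47 itself was the 1 gene that carried 3 separate broad domains (11.3, 6.003 and 5.14 kb). A further 20 genes carried 2, among them Pparg, Klf13, Rara, Nedd9, Mbnl1, Ptpn6 and the tyrosine kinase gene Syk.

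**Figure D2:**
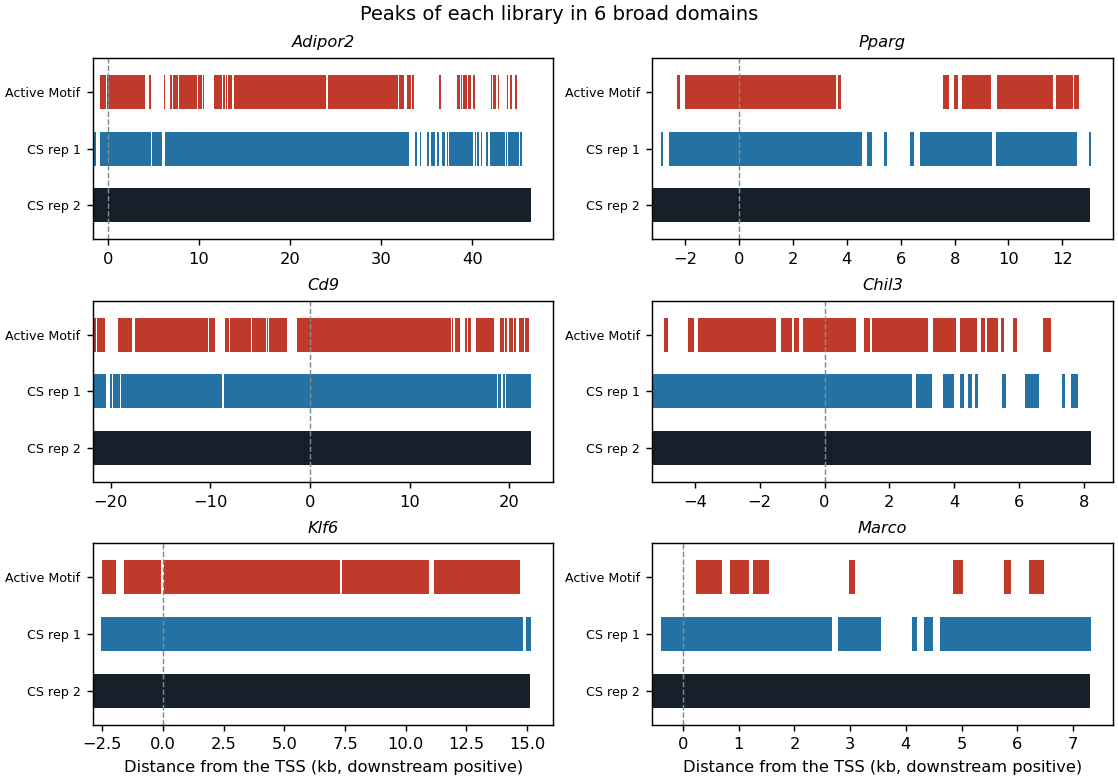
Peaks of the Active Motif library (red), Cell Signaling (CS) replicate 1 (blue) and CS replicate 2 (black) in the domains of Adipor2, Cd9, Klf6, Pparg (internal promoter), Chil3 and Marco, against distance from the TSS in kb with the direction of transcription to the right. In each domain replicate 2 forms 1 continuous block, replicate 1 from 2 (Klf6) to 22 blocks (Adipor2) and the Active Motif library from 5 to 31, and at Marco the Active Motif peaks cover 22.5% of the domain.

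The libraries differed in how continuously they filled the domains. Replicate 2 held 1 peak per domain in 743 of 820 domains (90.6%), whereas replicate 1 had a median of 3 peaks and the Active Motif library a median of 4. Median coverage was 69.4%, 90.3% and 100% for Active Motif, replicate 1 and replicate 2. A single peak of at least 5 kb was present in 164 domains (20%) for the Active Motif library, 462 (56.3%) for replicate 1 and 780 (95.1%) for replicate 2. The width of the domains was thus set largely by replicate 2. Applied to the peaks of replicate 2 alone, the rule gave 776 domains, and applied to those of replicate 1 alone it gave 440. The end-to-end span of the peaks differed most between the replicates at Hnrnpll (4.38 kb in replicate 1 and 6.74 kb in replicate 2), followed by Cdc42ep3 (12.5 and 14.8 kb), Ptger2 (7.05 and 9.16 kb), Nav2 (3.06 and 5.05 kb) and Ctsd (24.2 and 25.9 kb).

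The Active Motif library gave a readout that the choice of domains had not used. All 820 domains overlapped at least 1 of its peaks (100%, 95% Wilson interval 99.5 to 100%). This share was 34.8% for promoter regions under 1 kb, 90.3% for those of 1 to 2 kb and 99.1% for those of 2 to 5 kb. A wide region offers more bases to overlap, so the share of bases is the fairer measure. At least 50% of the bases lay under Active Motif peaks in 703 of 820 broad domains (85.7%, 83.2 to 88.0%), in 75.9% (74.4 to 77.4%) of regions of 2 to 5 kb, in 49.0% of those of 1 to 2 kb and in 11.0% of those under 1 kb. Within the broad class the share went from 79.8% in domains of 5 to 6 kb to 94.2% in those of 15 kb and wider. Intervals here and below cover counting error over regions only, since regions of 1 genome are not replicates and the antibody is represented by 1 library. The 978 shared regions that were at least 5 kb wide but away from protein-coding starts also all held an Active Motif peak, with at least 50% of the bases covered in 70.4% (67.5 to 73.2%).

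Peak height moved with width in all 3 libraries. Height is MACS fold enrichment over input at the strongest peak of a region. In broad domains its median was 20.9 with the Active Motif antibody, 42.9 for replicate 1 and 41.9 for replicate 2. In regions of 1 to 2 kb the medians were 8.27, 15.4 and 23.4. A region with more peaks has more chances to hold a high one, and the 2 Cell Signaling values come from the lists that chose the domains. Active Motif coverage was under 50% in 117 domains and under 25% in 8, namely those of Slc48a1 (4.58%), Cd47 (the 6.003 kb domain, 7.18%), Nav2 (12.7%), Arhgef2 (14.4%), Ap2a2 (18.8%), Marco (22.5%), Gm9833 (23.7%) and Mid1ip1 (24.8%). These 8 were singled out after their values were seen.

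**Figure D3:**
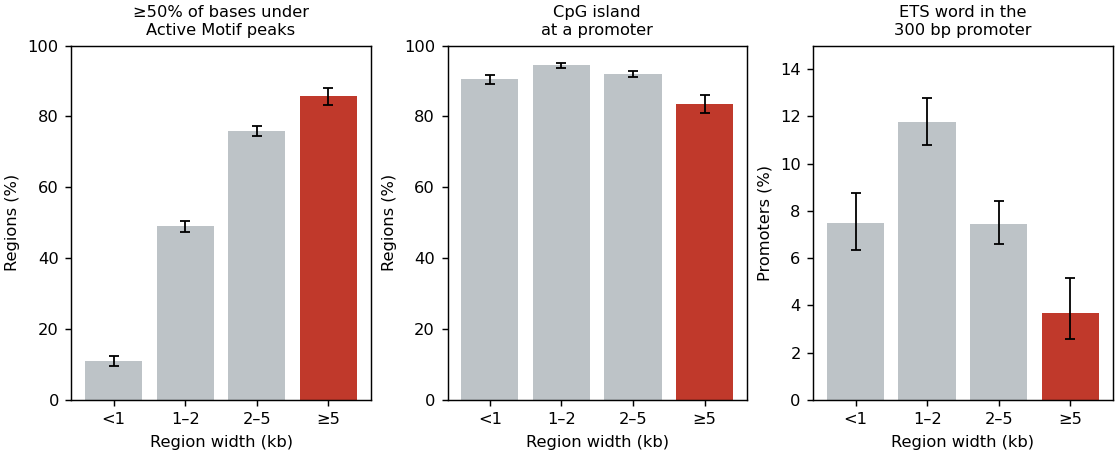
Share of acetylated promoter regions, by width class, with at least 50% of bases under Active Motif peaks (left), with a CpG island at a promoter (middle) and with the ETS word CCGGAAGT in the 300 bp promoter (right). Bars give the percent of 1875, 3956, 3221 and 820 regions from narrowest to widest, error bars are 95% Wilson intervals, and broad domains (red) are highest in the left panel (85.7%) and lowest in the others (83.7% and 3.66%).

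Broad domains lay mostly downstream of the reference TSS. This is the overlapped TSS nearest to the annotated 5′ end of the gene, hence the most upstream of those overlapped. Where a gene had several overlapped starts, this choice lengthened the downstream reach. Broad domains, with 1 gene or more, overlapped the 1 kb windows of a median of 2 TSS. Among the 736 domains with 1 protein-coding gene, 576 (78.3%, 75.1 to 81.1%) reached further into the gene than away from it. The median reach was 5.06 kb downstream and 1.80 kb upstream. The same lean was present in narrower regions, at 65.1% under 1 kb, 73.5% at 1 to 2 kb and 76.4% at 2 to 5 kb, and it was 88.3% (53 of 60) in single-gene domains of 15 kb and wider. The reach itself is set in part by the width limit, and 684 of the 736 domains reached over 2 kb downstream and 341 over 2 kb upstream. The longest downstream reach was that of Adipor2 (46.5 kb) and the longest upstream reach that of Cd9 (21.8 kb). In all, 62 domains (7.56%) covered the whole length of their gene, among them Klf6, Cebpb, Cebpa, Bhlhe40, Bhlhe41, Id1 and Lyz2.

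The position of peaks around the TSS was read in bins of 250 bases. In the Active Motif library, peaks covered 93.5% of the single-gene domains at 0.625 kb downstream, 72.8% at 0.125 kb upstream and 77.3% at 0.375 kb upstream. A notch therefore lay just before the TSS. The Cell Signaling replicates had no such notch, with 94.4% and 96.1% covered at 0.125 kb upstream. At 2.875 kb downstream the 3 libraries covered 57.1%, 76.1% and 87.1% of domains, and at 2.875 kb upstream 18.1%, 34.0% and 42.4%. Asymmetry about the TSS was thus present with either antibody.

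**Figure D4:**
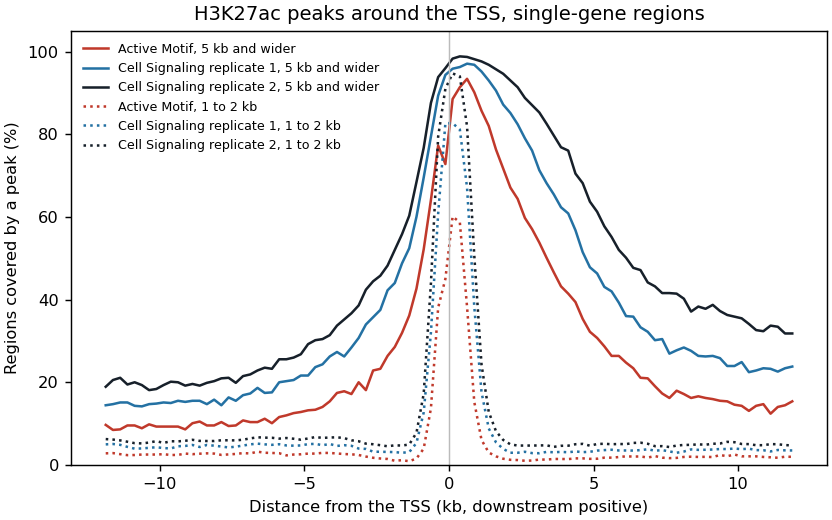
Percent of single-gene regions covered by a peak (vertical axis) against distance from the TSS in kb (horizontal axis, downstream positive), for broad domains (solid, 736 regions) and regions of 1 to 2 kb (dotted, 3447 regions), in each library. In broad domains every library falls more slowly downstream than upstream, and the Active Motif line dips to 72.8% just upstream of the TSS.

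The strongest point of a domain was often not at the start of the gene. The strongest Active Motif summit lay over 1 kb from the nearest overlapped TSS in 299 of 820 domains (36.5%, 33.2 to 39.8%), downstream of it in 189 and upstream in 110. For replicates 1 and 2 the shares were 37.8% and 33.5%. In regions of 2 to 5 kb they were 9.81%, 10.2% and 8.54%, but a wider region leaves more room for a distant summit. In the 69 domains of 15 kb and wider, the Active Motif summit was over 1 kb away in 44 (63.8%, 52.0 to 74.1%). At Nceh1 the strongest summits lay 15.5, 31.3 and 15.5 kb inside the gene, and at Zmiz1 they lay 21.4, 22.0 and 21.5 kb inside. At Adipor2 the summits of the 3 libraries fell close together, at -8.04, -8.04 and -7.99 kb from the nearest overlapped start, which is one inside the gene. At Fpr1 to Fpr3 they lay 16.9, 18.3 and 17.0 kb downstream of the nearest start.

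Introns made up most of the domains. Of all bases in broad domains, 68.7% were intronic, 9.50% exonic and 21.8% intergenic, compared with 53.1%, 19.4% and 27.5% in narrower promoter regions. Exons crowd near the TSS, so a longer region takes in a smaller exonic share. Of the broad domains, 736 held 1 protein-coding gene, 79 held 2 and 5 held 3. More than 1 gene was thus present in 10.2% (8.35 to 12.5%), compared with 16.1% (14.9 to 17.4%) of regions of 2 to 5 kb and 12.9% of those of 1 to 2 kb. Of the 79 pairs, 35 were divergent, 28 faced each other and 16 ran in the same direction. The 5 trios were Fpr1, Fpr2 and Fpr3, then Fkbpl, Ppt2 and Prrt1 (19.4 kb), Evi2, Evi2a and Evi2b (13.4 kb), Hcst, Nfkbid and Tyrobp (13.1 kb), and Cox4i1, Emc8 and Gm27021 (6.05 kb). Hcst and Tyrobp encode signalling adaptors of immune receptors, and their domain was a single peak in each Cell Signaling replicate with coverage of 83.4%, 99.4% and 100%. A TSS of a long noncoding RNA fell in 17.4% (14.995 to 20.2%) of broad domains and in 11.95% of regions of 2 to 5 kb.

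Other acetylated regions were frequent near the domains. At least 1 shared region away from protein-coding starts lay within 50 kb of 787 domains (96.0%, 94.4 to 97.1%), with a median of 5 such regions. For promoter regions of 2 to 5 kb the share was 79.0% and the median 2, and for those of 1 to 2 kb they were 60.9% and 1. The flanks were counted from the edges of each region, so that every region had flanks of the same length. The domain with the most such neighbours was that of Apbb1ip, an adaptor of integrin activation, with 22. Abhd12 and the widest domain of Cd47 had 19 each, Mrc1 had 18 and Cd9 had 15. The domains themselves were spread out, with a median distance of 433 kb to the next one, although 147 lay within 50 kb of another.

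CpG islands were less frequent at broad domains than at narrower ones. An island, here a 200 bp window within 1 kb of the TSS with at least 50% GC and an observed over expected CpG ratio of at least 0.6, was present at a promoter of 686 of 820 domains (83.7%, 81.0 to 86.0%). The share was 90.5% under 1 kb, 94.5% at 1 to 2 kb and 92.1% (91.1 to 93.0%) at 2 to 5 kb, and 48.2% at genes with no shared region. With a stricter rule (500 bp, 55% GC, ratio 0.65), added after the data were seen, the shares were 72.0% at broad domains and 86.1% at 2 to 5 kb. The lower quartile of the CpG ratio at the reference TSS was 0.358 in broad domains and 0.534 in regions of 2 to 5 kb. The median width was 6.96 kb for the 667 domains with an island at the reference TSS and 7.54 kb for the 153 without. Active Motif coverage was 70.0% and 66.3% (medians) in these groups. The domains without an island included those of Fpr1, Lcp1, Tfec, Atp6v0d2, Axl, Olr1, Itgb2, Cybb, Chil3, Cidec, Cd36, Fabp1, Mpeg1 and Lyz2.

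Of the 11 consensus words searched on both strands in 300 bp promoters (250 bases before and 50 after the reference TSS), the ETS word had the lowest ratio of broad to narrower shares. CCGGAAGT was found at 30 of 820 broad domains (3.66%, 2.57 to 5.17%), 7.45% of regions of 2 to 5 kb, 11.8% (10.8 to 12.8%) of regions of 1 to 2 kb and 4.63% of all promoters. Among promoters with an island the shares were 4.50% at broad domains and 9.998% at narrower regions, so the difference was also present among CpG-rich starts alone. The NRF1 word GCGCATGC followed the same order, at 3.05% (2.07 to 4.46%) of broad domains, 5.65% at 2 to 5 kb, 6.65% at 1 to 2 kb and 3.34% of all promoters. The TATA word TATAAA went the other way, at 10.4% (8.46 to 12.6%) of broad domains, 6.49% (5.69 to 7.39%) at 2 to 5 kb and 12.6% of all promoters. Counting only words on the gene's strand that begin 40 to 20 bases before the TSS, where a TATA box works (a count added after the data were seen), it was present at 21 broad domains (2.56%, 1.68 to 3.88%) and at 0.962% (0.679 to 1.36%) of regions of 2 to 5 kb. These 21 included Fos, Junb, Btg1, Id1, Il1a, Cebpa, Gadd45g, Sgk1, Zfp36l1, Tsc22d3, Plet1 and Laptm5.

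The other words were compared in the same way, and their shares at broad domains and narrower acetylated regions lay closer together as a ratio. The PU.1 word GAGGAAGT was present at 4.39% (3.19 to 6.02%) of broad domains, 3.41% of narrower regions and 3.32% of all promoters, with matches at Nceh1, Spi1, Syk, Ncf4, Rel and Ctss. Its shares at broad domains and narrower regions were 4.05% and 2.74% with an island, and 5.88% and 11.6% without one. The C/EBP word TTGCNNAA was present at 10.5%, 8.59% and 10.5%, in the order broad domains, narrower regions and all promoters. The AP-1 word TGANTCA was present at 6.34%, 4.64% and 6.80%, and the RUNX word TGTGGT at 13.5%, 12.6% and 15.2%. For the E-box (CACGTG) the shares were 10.1%, 10.6% and 7.86%, and for NF-Y (CCAAT) 37.8%, 39.1% and 38.5%. The SP/KLF word GGGCGG was found at 59.8%, 63.7% and 45.1%, so it was less frequent at broad domains than at narrower regions but more frequent than over all promoters. For the cyclic AMP response element TGACGTCA the shares were 2.68% (1.78 to 4.03%), 3.8003% and 2.41%, and the interval includes both of the other shares. The last word was found at Dusp1, Jund, Ier2, Btg2, Skil and Trib1. All of these are exact words and miss sites with other spellings.

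Which genes carried broad domains was then read from 28 gene lists. By comparison, 4.09% of all protein-coding genes were at a broad domain and 42.3% at a narrower acetylated promoter only. A domain shared by neighbouring genes was counted for each of them and cannot be assigned to 1 of them. Among others, Cidec shared its domain with Jagn1, Egr2 with Ado, Cd68 with Mpdu1 and Zfp36 with Plekhg2. The same held for Bcl6 with Gm37419, Polr2a with Slc35g3 and Tk1 with Afmid. The sorted cells were first checked against their label. All 10 markers examined were acetylated, 6 of them broadly (Siglecf, Itgax, Marco, Chil3, Pparg and Cd68). The widest regions at Fabp4, Car4, Ear2 and Mertk measured 3.99, 3.44, 4.03 and 4.70 kb. Cd68 and Mertk also belong to the pan-macrophage list, so they do not separate AMs from other macrophages. Some other genes listed as AM core had short regions or none, as given below. Because domains were selected on width, the counts by list describe the selection and carry no test. The Active Motif library gives a separate reading, namely the length under its peaks within 5 kb of the TSS. Its median was 4.66 kb for genes at broad domains, 1.03 kb for genes at narrower regions only, 0 kb for the remaining genes and 0 kb over all genes.

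Genes listed here as AM core were at a broad domain in 21 of 39 cases (53.8%, 38.6 to 68.4%). The list was drawn up with earlier results of these data known and need not match the study's own set of AM-core genes. Whether its genes separate AMs from other macrophages was not tested. A narrower region was present at 17 and none at Abcc3. The median Active Motif length was 3.63 kb. After Cd9 (44.0 kb), the widest were those of the sterol exporter gene Abcg1 (20.1 kb), the proton pump subunit gene Atp6v0d2 (18.8 kb), the scavenger receptor gene Olr1 (17.2 kb) and the lipoprotein lipase gene Lpl (14.6 kb). Chil3, which encodes a chitinase-like protein abundant in AMs, had 13.5 kb. Its coverage was 65.9%, 74.1% and 99.9% and its highest fold enrichment 8.53, 36.3 and 44.9, so that it lay below the lower quartile of broad domains in the Active Motif library (15.2) but between the quartiles in replicate 1 (30.7 and 54.6) and replicate 2 (35.0 and 48.4). The remaining AM core domains were those of Cidec (13.2 kb), Krt19 (12.6 kb), Ctsk (12.02 kb), Fabp1 (11.0 kb), Plet1 (10.2 kb), Cd2 (10.1 kb), F7 (8.42 kb), Itgax (8.19 kb), Krt79 (8.15 kb), Marco (7.87 kb), Tmem86a (7.43 kb), Il18 (6.49 kb), Ucp3 (5.38 kb), Hcar2 (5.08 kb) and Siglecf (5.07 kb).

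The surface markers used to identify AMs were not among the widest. Siglecf, a sialic acid-binding lectin, lay at the lower edge of the class with coverage of 64.8%, 87.4% and 100% and fold enrichment of 14.2, 29.98 and 39.9. Itgax, which encodes CD11c, had coverage of 86.3%, 96.7% and 100% and fold enrichment of 29.0, 56.1 and 50.01. The domain of Marco, a scavenger receptor for particles and bacteria, was weak in all libraries, with coverage of 22.5%, 86.3% and 99.8% and fold enrichment of 7.99, 12.7 and 11.99. Its width therefore rested on low peaks. Trim29 (4.89 kb), Slc39a2 (4.47 kb), Mgll (4.46 kb), Ear2 (4.03 kb) and Fabp4 (3.99 kb) fell short of the limit by little, while Cdh1 (0.349 kb) and Mmp8 (1.14 kb) had short regions.

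Among 27 transcription regulators of AMs, 13 (48.1%, 30.7 to 66.0%) lay at a broad domain, 10 at a narrower region and 4 (among them Smad3, Runx3 and Bach2) at none. The order of widths was Tfec (19.8 kb), Klf6 (18.1 kb), Pparg (16.3 kb), Zeb2 (15.4 kb), Egr2 (14.7 kb), Cebpb (13.5 kb), Runx1 (12.6 kb), Bhlhe40 (10.7 kb), Bhlhe41 (10.01 kb), Cebpa (8.57 kb), Rxra (8.47 kb), Spi1 (6.57 kb) and Klf4 (5.60 kb). Pparg carried 2 domains. The one at its annotated 5′ end (9.49 kb, chr6:115360514-115370004) had coverage of 84.4%, 91.8% and 98.6% and fold enrichment of 17.9, 34.2 and 35.9. The other, at an internal start (16.3 kb, chr6:115418839-115435120), had coverage of 62.2%, 82.3% and 99.8% and fold enrichment of 31.9, 65.7 and 50.4. The internal domain was thus wider and higher in every library, and it is the CpG-poor promoter of the pair. Spi1, which encodes PU.1, had one of the narrower domains of this group, with coverage of 66.8%, 90.98% and 100% and fold enrichment of 29.97, 44.6 and 54.4. Over Cebpb lay 1 peak of each Cell Signaling replicate and 11 Active Motif peaks, with coverage of 83.2%, 99.8% and 100%. Rxrb (3.01 kb), Nr1h3 (4.28 kb), Rbpj (2.57 kb), Stat5a (3.40 kb), Stat5b (2.07 kb) and Smad4 (1.63 kb) had narrower regions.

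Genes of signals from the lung niche, mostly receptors but also the ligand gene Tgfb1 and the kinase gene Jak2, were at a broad domain in 3 of 16 cases (18.8%, 6.59 to 43.0%), compared with 4.09% of all protein-coding genes. These were the interleukin-4 receptor gene Il4ra (11.2 kb) and the TGF-β receptor genes Tgfbr2 (10.8 kb) and Tgfbr1 (10.6 kb). Coverage at Tgfbr2 was 74.3%, 91.7% and 100% and at Tgfbr1 46.7%, 70.2% and 100%. The GM-CSF receptor genes Csf2rb (4.28 kb), Csf2ra (3.05 kb) and Csf2rb2 (2.51 kb), the M-CSF receptor gene Csf1r (4.31 kb) and the Notch genes Notch2 (4.03 kb) and Notch1 (1.75 kb) had narrower regions. The list of study genes is a choice of 31 from those that the study names. It leaves out, for example, Maff (broad), Cpne5 (narrower) and C1qa (no shared region). Of the 31 genes, 21 (67.7%, 50.1 to 81.4%) were at a broad domain. The study drew these genes from its own assays of AMs and shows acetylation at some of them, so the count is no independent support. Those not named above were Cd36 (11.8 kb), Tlr2 (8.42 kb) and Ppt1 (5.97 kb).

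Lipid handling was represented by 11 of 29 genes (37.9%). Besides Nceh1, Abcg1, Lpl, Cidec, Cd36 and Fabp1, they were the lysosomal acid lipase gene Lipa (17.995 kb), the lipid droplet coat gene Plin2 (14.0 kb), Soat1 (7.93 kb), which esterifies cholesterol, and the fatty acid oxidation genes Cpt1a (6.17 kb) and Hadha (5.31 kb). Several genes of lipid synthesis in the same list had narrow regions or none, with Fasn at 0.909 kb, Scd2 at 0.97 kb, Srebf1 at 2.11 kb and no shared region at Scd1. Cd36, a transporter of fatty acids, had coverage of 78.6%, 97.5% and 98.6% and fold enrichment of 43.0, 73.4 and 51.7. The fold enrichment, though not the replicate 2 coverage, was above the median of broad domains in every library. Lysosomal genes were at a broad domain in 11 of 26 cases (42.3%), led by Ctsd, Atp6v0d2 and Lipa and followed by Psap (13.9 kb), Hexa (12.9 kb), Ctsk, Cd68 (6.17 kb), Ctsz (5.24 kb), Ctss (5.19 kb), Grn (5.06 kb) and the lysosomal regulator gene Tfeb (5.03 kb).

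Cytoskeletal and adhesion genes had the largest share of any list outside the list of study genes, with 14 of 23 (60.9%, 40.8 to 77.8%). Lcp1 led, followed by Anxa2 (15.8 kb), the non-muscle myosin gene Myh9 (14.1 kb), Flna (12.2 kb), Lgals3 (10.2 kb) and the actin genes Actb (9.98 kb) and Actg1 (8.21 kb). Tmsb4x, Arpc2, Vim, Pfn1, Capg, Anxa1 and Cfl1 completed them. Immediate early and AP-1 genes were at a broad domain in 15 of 29 cases (51.7%, 34.4 to 68.6%), among them Klf6, Maff (16.5 kb), Zfp36 (14.7 kb), Junb (12.6 kb), Fosl2 (12.1 kb), Jund (6.95 kb), Ier2 (5.96 kb), Myc (5.81 kb), Fos (5.58 kb) and Jun (5.14 kb). The median Active Motif length for this list was 4.09 kb. Klf6 had coverage of 91.5%, 97.6% and 99.7% and fold enrichment of 45.1, 75.7 and 58.8, and Fos had coverage of 83.5%, 100% and 91.6% and fold enrichment of 35.8, 73.4 and 55.3. Replicate 2 covered more of the domain than replicate 1 in 769 of 820 cases, and Fos was an exception. Of the same list, Nr4a1 (4.35 kb), Atf3 (3.32 kb) and Egr1 (2.52 kb) stayed below the limit.

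Genes of signalling feedback were at a broad domain in 12 of 33 cases (36.4%). The phosphatase genes Dusp5 (12.3 kb), Dusp1 (10.9 kb) and Dusp6 (8.55 kb), the TGF-β antagonists Ski (9.74 kb), Skil (8.35 kb) and Tgif1 (7.89 kb) and the NF-κB inhibitors Tnfaip3 (9.18 kb), Nfkbia (6.32 kb) and Tnip1 (5.54 kb) were among them. Relatives in the same list had narrower regions, with Dusp16 at 4.74 kb, Dusp10 at 1.96 kb, Dusp2 at 0.854 kb, Smad7 at 1.97 kb, Nfkbie at 3.26 kb, Nfkbiz at 3.18 kb and the 4 Socs genes at 0.786 to 2.26 kb, and Dusp4 had no shared region. Of the inducible inflammatory genes 2 of 20 were broad (10%, 2.79 to 30.1%), Cxcl2 (8.90 kb) and Il1a (6.96 kb), and the interval includes the 4.09% of all protein-coding genes. Il1b (4.46 kb) and Tnf (3.30 kb) were narrower, and 9, including Nos2, Il12b, Il10 and Ccl2, had no shared region. Lists of general cell functions lay below the AM core and AM regulator lists but above the 4.09% of all genes. They held 5 of 22 housekeeping genes (among them B2m, Pkm, Polr2a and Hspa8) and 5 of 25 chromatin genes (among them Bcl6, Chd2, Tet2 and Brd2). There were also 3 of 23 apoptosis genes (Mcl1, Casp8 and Bcl2l11) and 3 of 23 cell cycle genes (Ccnd2, Tk1 and Ccnd3). Among acetylated genes alone the shares were 22.7%, 20%, 13.6% and 13.6%, in the same order, against 8.81% of all acetylated genes. All of the housekeeping and chromatin genes were acetylated, with a median widest region of 3.66 kb and 2.77 kb. These medians lay between the 1.875 kb of all acetylated genes and the 5.23 kb of acetylated AM core genes.

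Pan-macrophage genes were at a broad domain in 6 of 21 cases (28.6%), namely Sirpa, Tyrobp, Lyz2 (10.7 kb), Tlr4 (6.65 kb), Tlr7 (6.24 kb) and Cd68. No broad domain was found for 14 monocyte genes, 16 alveolar and 12 airway epithelial genes, 14 endothelial, 14 fibroblast and muscle, 15 T and NK cell, 12 B cell and 12 neutrophil genes, and 20 genes of other organs. Lists of 12 to 20 genes are short, the upper Wilson limits of these zero counts ran from 16.1% to 24.2%, and all of them include the 4.09% of all genes, so the zeros do not set these lists apart from genes at large. Narrower regions were present at 7 of 14 monocyte genes, among them Nr4a1 (4.35 kb), Fn1 (4.03 kb), Treml4 (3.43 kb) and Ccr2 (0.559 kb), and Ly6c2 had none. In the other lists they were present at 3 of 16 alveolar epithelial genes (Abca3, Napsa and Epcam, 0.823 to 1.60 kb), 1 of 12 airway epithelial genes (Tppp3, 2.93 kb), 2 of 14 endothelial genes (Pecam1 and Vwf, 1.91 and 2.81 kb) and 1 of 14 fibroblast and muscle genes (Acta2, 0.8 kb). They were also present at 2 of 12 B cell genes (Ms4a1 and Cd22, 3.84 and 2.38 kb), 2 of 12 neutrophil genes (S100a8 and Csf3r, 0.74 and 1.96 kb), 1 of 15 T and NK cell genes (Klrb1c, 0.34 kb) and 0 of 20 genes of other organs. The part of other cells in these regions was not tested. The interstitial macrophage list held 1 of 12, Mrc1 (12.6 kb), which encodes the mannose receptor. Its coverage was 65.7%, 80.4% and 100%, while C1qa, C1qb, C1qc and Lyve1 of the same list had no shared region. Whether Mrc1 separates interstitial macrophages from AMs was not tested. Among genes of other tissue macrophages, 3 of 15 were broad, Clec1b, Id1 (7.72 kb) and P2ry12 (5.42 kb). Clec1b shares its 13.5 kb domain with Clec9a, the 1 dendritic cell gene of 11, so the domain cannot be assigned to either of them. Siglecf was the 1 eosinophil gene of 8, and it is an AM marker as well.

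**Figure D5:**
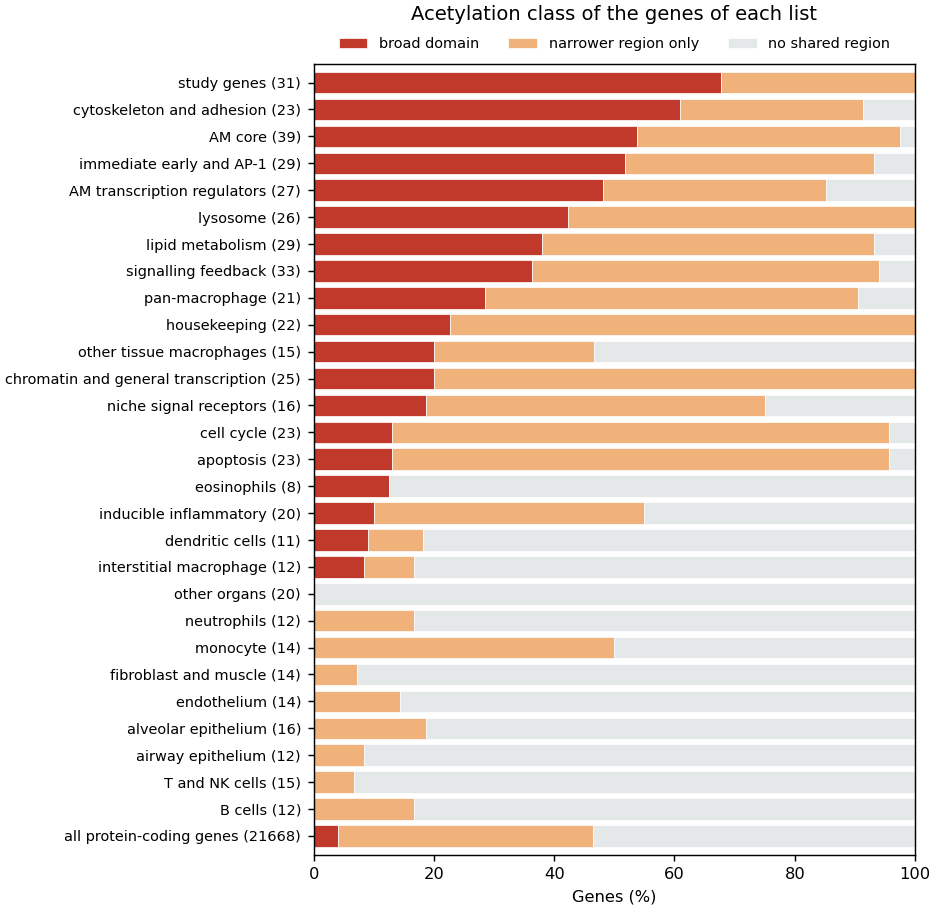
Share of the genes of each list (number of genes in parentheses) at a broad domain (red), at a narrower acetylated region only (orange) and at no shared region (grey). The lists of study genes, cytoskeleton, AM core, immediate early and AM regulator genes lie at the top with 48.1% to 67.7% of genes broad, against 4.09% of all protein-coding genes.

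Gene symbols gave a further view that did not depend on chosen lists. Of 152 symbol families with at least 15 protein-coding genes, Klf had the largest share at broad domains, with 6 of 17 (Klf3, Klf4, Klf6, Klf7, Klf10 and Klf13), Krüppel-like zinc finger factors. Next came Pik genes of phosphoinositide signalling with 5 of 16, the C-type lectin family Clec with 7 of 30, the Dusp phosphatases with 5 of 24 and the GTPase-activating Arhgap proteins with 7 of 35. Map (9 of 46) and Stk (4 of 22) followed. Symbols of Cd followed by a number, for leukocyte surface antigens and unrelated genes, had 17 of 99. By comparison, the share was 4.09% of all protein-coding genes and 8.81% of acetylated ones. The families named are the highest of 152, most of them small, so their order carries no test. Neighbouring members can share a domain or a locus, as Clec1b and Clec9a do, so that family members are not independent.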

How the data were processed

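H3K27ac was profiled by HT-ChIPmentation in AMs of wild-type mice, with 1 Active Motif library, 2 Cell Signaling libraries and 3 inputs. Per the study's methods and the labels, the authors trimmed reads with Cutadapt, aligned them to mm10 with Bowtie2, removed duplicates with Picard, filtered with samtools and called peaks in each library, without pooling, with MACS3 against input at a q-value of 0.05. Each peak in the deposited lists carries an integer score, its fold enrichment over input (a ratio) and −log10 of its p-value and q-value, besides a summit position. They hold no read counts, so the depth behind each value cannot be read from them, and a peak's presence depends on depth and on the threshold. The inputs were not analysed here beyond their part in those calls, and 0 columns belonged to samples of other series.

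Overlapping Cell Signaling peaks (at least 1 bp, 19 autosomes and X) were merged, and regions with a peak of each replicate were kept. Broad domains were those of at least 5 kb that overlapped 1 kb either side of a protein-coding TSS of GENCODE vM21. The members and gene lists were chosen with earlier results of these data known. For each region the number of peaks, the percent of bases covered and the highest fold enrichment were taken per library. The reference TSS of a region was the overlapped TSS nearest to the annotated 5′ end of its gene. The reference gene of a domain was that of its reference TSS, and sequence measures were read around that TSS from the mm10 assembly. The 28 lists held 516 genes, of which 1 (Clec7a) was not matched to a protein-coding gene. By rule, genes named are those of the 20 widest domains, the 5 domains just above and 5 regions just below the width limit, the domains with the most protein-coding genes, the 5 whose peak span differs most between the Cell Signaling replicates, and the members at broad domains of the AM core, AM regulator, niche receptor, study gene and other cell type lists. Genes of other lists and other examples were chosen after their values were seen. Some genes counted in the lists are not reported here by name.

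With 1 condition and regions that are not replicates, no p-value was computed. Shares carry 95% Wilson intervals, which cover counting error over regions only. The results were recomputed without each replicate, with stretches covered by both replicates, with other width limits and peak thresholds, with neighbouring regions joined and with other promoter definitions. Python 3.11.15, NumPy 2.4.6, SciPy 1.17.1 and Matplotlib 3.10.9 were used. The code was tested on simulated data, and 66 of 66 checks passed.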

Additional observations from a re-analysis of the deposited data

How the results depend on the processing

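Of 71 values recomputed under alternatives, 54 stayed within the limits set for the same result and 17 moved. Replicate 2 decided the number of domains. Across the settings that left out a Cell Signaling replicate, the number ran from 440 (without replicate 2) to 776 (without replicate 1), and that of genes from 472 to 838. The share with at least 50% of bases under Active Motif peaks ran from 86.9% to 99.3% (higher without replicate 2), and the share reaching further downstream from 75.1% to 79.1% (lower without replicate 2). The share of AM core genes ran from 41.0% (without replicate 2) to 53.8%. With stretches covered by both replicates there were 425 domains at 457 genes, and 99.5% had at least 50% of bases covered. A limit of 4 kb gave 1252 domains at 1354 genes. A limit of 8 kb gave 299 domains at 327 genes, with 90.97% covered to at least 50%, a CpG island at 79.9% and 38.5% of AM core genes. When peaks up to 500 bp apart were joined, there were 1183 domains at 1317 genes, which the limit for counts still took as the same. With joining, 64.3% of domains had at least 50% of bases covered and 74.4% of AM core genes were at a domain. The stricter CpG island rule, chosen after seeing the data, gave 72.0%. The share of domains with an Active Motif peak was 100% under every alternative tried except joining (99.9%). Apart from the settings that by construction change the regions counted, the cause was not tested. No paired analysis was possible because the results come from no test and the samples form a single condition. The lists hold no read counts, and the Active Motif antibody has 1 library, so the error of its values between libraries is unknown.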
